A study of Mus musculus with 4 samples.

Results

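The 9 genes described here encode proteins that move, bind or sense calcium and magnesium in the kidney: Trpm6, Trpm7, Trpv5, Calb1, Slc8a1, Atp2b1, Atp2b4, Cnnm2 and Casr. They were chosen by symbol, and all 9 were found once among the 21312 genes of a table that compares proximal tubule nuclei of cisplatin-treated and untreated mice, and once among the 24468 genes of a table of 17 nucleus clusters. The Cis9w group consisted of male C57BL/6 mice injected with cisplatin, a platinum chemotherapy drug, at 8 mg/kg once a week for 4 weeks, with kidneys taken at week 9 counted from the first dose. The CT9w group was untreated. Each group had 2 samples of cortex with outer medulla, and the sources used here do not give the age of the mice. RNA of single nuclei was counted as unique molecular identifiers (UMIs), single captured molecules, with a droplet assay that reads the 3' ends of transcripts.

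Neither table labels a column with a sample, so no spread over replicates could be computed. The sources used here do not say whether the proximal tubule table pools 1 or both samples of a group, so its comparison may be one of single animals. The clusters pool nuclei of both groups. An average is normalised UMIs per nucleus: the UMIs of a gene summed over nuclei and divided by the summed size factors of those nuclei. The proximal tubule pools held 8557662 UMIs in Cis9w and 5123727 in CT9w, and the 17 clusters 36068714 UMIs, with the fewest in mixed-2 (254460) and the most in PT-S2/S3 (7425098). An average based on 3 UMIs is 0.000981 in Cis9w, 0.00164 in CT9w and 0.0237 in mixed-2. Intervals are 95% intervals, exact Poisson for an average and Clopper-Pearson for a share or a ratio of averages, and cover counting error only. The clusters were made from these same nuclei, so cluster levels are descriptions with no test.

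Most filtered calcium and magnesium is taken back along the nephron before the distal tubule, and the distal convoluted tubule and connecting tubule set what is finally lost in urine. There, calcium enters through the apical channel TRPV5, is carried across the cell by calbindin-D28k (Calb1) and leaves through the sodium-calcium exchanger NCX1 (Slc8a1) and plasma membrane calcium pumps (Atp2b1, Atp2b4). Magnesium enters the distal convoluted tubule through TRPM6, a channel with a kinase domain that assembles with the widely expressed TRPM7, and CNNM2 is a basolateral membrane protein needed for magnesium balance. CASR, the calcium-sensing receptor, acts in the thick ascending limb, where its activation limits calcium and magnesium reabsorption between cells. Cisplatin is known for causing urinary magnesium loss in patients.

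The positions of the genes are those of GENCODE M21 on GRCm38, the assembly also called mm10. All 9 are annotated as protein coding. Trpm6 lies at chr19:18749983-18892511 (plus strand), Trpm7 at chr2:126791565-126876230 (minus), Trpv5 at chr6:41652173-41680769 (minus) and Calb1 at chr4:15881264-15908064 (plus). Slc8a1 lies at chr17:81373105-81738377 (minus), Atp2b1 at chr10:98914406-99026143 (plus) and Atp2b4 at chr1:133699457-133801041 (minus). Cnnm2 lies at chr19:46761596-46880192 (plus) and Casr at chr16:36493696-36562141 (minus).

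Some of the genes had most of their UMIs in a few distal clusters and others were spread more evenly, and the promoters of 4 of them are printed to show how different their start regions are. The windows run from 250 bases before to 50 bases after the start of transcription, from RefSeq on GRCm38.p6. They are printed 5′ to 3′ on the gene's own strand, with every CG in capitals and, in Trpv5, the motif TATAAA in capitals as well. Trpv5 (chr6:41680674-41680973, minus strand) and Trpm6 (chr19:18749480-18749779, plus) had UMIs mostly in distal clusters. Trpm7 (chr2:126876212-126876511, minus) and Atp2b1 (chr10:98914392-98914691, plus, the first of 2 windows) had levels that differed less between clusters.
Trpv5: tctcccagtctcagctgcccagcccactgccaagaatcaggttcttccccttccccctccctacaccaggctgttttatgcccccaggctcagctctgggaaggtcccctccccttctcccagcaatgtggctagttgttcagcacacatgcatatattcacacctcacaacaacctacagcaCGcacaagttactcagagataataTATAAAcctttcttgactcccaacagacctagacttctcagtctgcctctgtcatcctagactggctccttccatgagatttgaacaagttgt
Trpm6: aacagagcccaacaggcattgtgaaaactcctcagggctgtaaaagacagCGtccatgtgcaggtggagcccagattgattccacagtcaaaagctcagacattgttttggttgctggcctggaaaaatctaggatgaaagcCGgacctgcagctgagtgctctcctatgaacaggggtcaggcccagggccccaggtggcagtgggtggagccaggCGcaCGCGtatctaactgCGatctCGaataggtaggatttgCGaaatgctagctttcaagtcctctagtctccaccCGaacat
Trpm7: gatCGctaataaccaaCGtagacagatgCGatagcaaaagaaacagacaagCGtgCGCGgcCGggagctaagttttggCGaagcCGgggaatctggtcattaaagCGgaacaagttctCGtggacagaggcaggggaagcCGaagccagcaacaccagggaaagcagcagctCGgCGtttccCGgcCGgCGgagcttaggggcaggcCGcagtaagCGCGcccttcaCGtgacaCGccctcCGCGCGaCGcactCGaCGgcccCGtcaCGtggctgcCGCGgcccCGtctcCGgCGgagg
Atp2b1: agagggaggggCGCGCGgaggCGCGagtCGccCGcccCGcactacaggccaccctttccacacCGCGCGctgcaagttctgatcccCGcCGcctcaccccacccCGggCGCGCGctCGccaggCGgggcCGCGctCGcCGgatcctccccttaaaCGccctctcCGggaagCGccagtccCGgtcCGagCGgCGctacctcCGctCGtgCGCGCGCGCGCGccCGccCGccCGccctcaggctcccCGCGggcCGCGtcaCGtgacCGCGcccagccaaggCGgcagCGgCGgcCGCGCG

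The Trpv5 window holds 1 CG, and 14.1% of 32851 RefSeq promoter windows of the same length hold no more. Its TATAAA begins 43 bases before the start, and 13.6% of all windows hold that motif on either strand. The Trpm6 window holds 9 CG, close to the median of 7 over all windows. The Trpm7 window holds 35 CG, and 93.8% of windows hold no more. The Atp2b1 window holds 54 CG, and 99.7% of windows hold no more. The motif GGGCGG, the core of a GC box, was found 4 times in that window on both strands together, its own CG being among those in capitals, and 35.7% of all windows hold it at least once. Of the other members, Slc8a1 has 9 CG, Atp2b4 4, Casr 4 and Cnnm2 21. The Atp2b4 window (chr1:133753698-133753997, minus) is that of a start inside the gene span given above, not at its outer 5′ end. The Trpm6 window lies wholly before the gene span given above, so its RefSeq start is not the start of that span. Of the 9 genes, 8 have an entry in the RefSeq table, and Calb1 is named only. These counts describe letters in a window and say nothing of what binds there.

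The 17 clusters carry the authors' names. DCT+CNT had the highest level of Slc12a3, the thiazide-sensitive sodium chloride cotransporter that defines the distal convoluted tubule, at 33.7 normalised UMIs per nucleus, and TAL the highest level of Slc12a1, the cotransporter of the thick ascending limb, at 41.1. DCT+CNT led for 5 of the 9 genes, CNT for 2, TAL for 1 and the immune cells for 1.

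Trpm6, the magnesium entry channel, averaged 2.49 in DCT+CNT, a median of 0.0774 over the 17 clusters and 0.00757 in PT-S2/S3, the lowest. The DCT+CNT cluster held 74.4% (73.0 to 75.8%) of its 3803 UMIs in the clusters. The second level, 0.353, was that of PT-injury/repair, and DCT+CNT was 7.07-fold (6.26 to 8.01) above it. PT-injury/repair and CNT did not differ beyond counting error, with a ratio of 1.01 (0.829 to 1.23). Below CNT, which was 3.40-fold (1.93 to 6.53) above mixed-2, no neighbours in the order differed beyond counting error.

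Trpv5, the calcium entry channel, averaged 0.608 in CNT, 0.220 in PC (principal cells of the collecting duct) and 0.179 in DCT+CNT. CNT was 2.77-fold (2.22 to 3.47) above PC, while PC and DCT+CNT did not differ beyond counting error (ratio 1.23, 0.968 to 1.55). These 3 clusters held 92.0% of its 646 UMIs, against 11.8% of all UMIs in the clusters. The next cluster, IC-A/IC-B (intercalated cells), was 14.3-fold below DCT+CNT. No UMI was counted in mixed-2 or the immune cells, whose 3-UMI averages are 0.0237 and 0.0166. Trpv5 had the fewest UMIs of the 9 genes, and its levels outside the 3 distal clusters rest on few molecules.

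Trpm7, the partner channel-kinase of TRPM6, was read in every cluster. It averaged 4.12 in DCT+CNT, a median of 0.756 over the clusters and 0.516 in Mixed-1. DCT+CNT was 3.73-fold (3.55 to 3.93) above the second, PT-S2. The 5 proximal tubule clusters other than PT-injury/repair lay between 0.986 and 1.10, close together. PT-injury/repair had 0.560, among the 3 lowest clusters. The 6 proximal tubule clusters held 59.6% of the Trpm7 UMIs, near their 65.9% of all UMIs.

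Calb1, the cytosolic calcium carrier, averaged 2.18 in DCT+CNT, 1.99 in CNT and 0.863 in PC, with 0.0249 in PT-S2 as the lowest. DCT+CNT was 1.10-fold (1.01 to 1.18) above CNT, and CNT 2.31-fold (2.06 to 2.59) above PC. PC was 5.47-fold above the fourth cluster, mixed-2. The 3 distal clusters held 84.8% of the 4515 Calb1 UMIs.

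Slc8a1, the exchanger that carries calcium out across the basolateral membrane, averaged 68.1 in CNT and 57.2 in DCT+CNT. The ratio of CNT to DCT+CNT was 1.19 (1.17 to 1.21), and DCT+CNT was 4.36-fold above PC, at 13.1. The immune cells followed with 3.21, and PT-S1 was lowest with 0.184. The 3 distal clusters held 91.8% of 111858 UMIs. Calb1 and Slc8a1 thus shared their 3 leading clusters, in a different order for the first 2 places.

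The calcium pumps did not share that order. Atp2b4 averaged 0.347 in DCT+CNT, 0.332 in the endothelial cluster EC2, 0.298 in CNT and 0.267 in EC1, and neighbours among these 4 did not differ beyond counting error. Its lowest level was 0.00296 in PT-S1, from 8 UMIs. Atp2b1 averaged 1.13 in the immune cells, 2.44-fold (1.97 to 3.04) above Podocyte, at 0.462. Podocyte, PT-injury/repair (0.461) and EC1 (0.459) lay together. Along the proximal tubule Atp2b1 had 0.334 in PT-S1, 0.304 in PT-S2, 0.264 in PT-S2/S3, 0.202 in PT-S3-1 and 0.147 in PT-S3-2, its lowest cluster. The 3 distal clusters held 51.1% of the Atp2b4 UMIs and 12.3% of the Atp2b1 UMIs, the second of these close to their 11.8% of all UMIs.

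Cnnm2 averaged 1.47 in DCT+CNT, 0.411 in CNT and 0.293 in TAL, and EC2 was lowest with 0.123. DCT+CNT was 3.57-fold (3.07 to 4.18) above CNT, and CNT 1.40-fold (1.17 to 1.67) above TAL. From TAL downwards no neighbours differed beyond counting error. Trpm6, Trpm7 and Cnnm2, the magnesium genes, all had their highest level in DCT+CNT, which also led for Calb1 and Atp2b4.

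Casr, the calcium-sensing receptor, averaged 1.30 in TAL, 0.416 in IC-A/IC-B, 0.231 in DCT+CNT and 0.219 in CNT. TAL was 3.13-fold (2.77 to 3.55) above IC-A/IC-B, and IC-A/IC-B 1.80-fold (1.52 to 2.13) above DCT+CNT. TAL held 66.5% (64.8 to 68.3%) of the 2835 Casr UMIs, against 8.07% of all UMIs. For each UMI of Slc12a1 there were 0.0317 of Casr in TAL, and between 0.0185 and 0.0370 in the 6 proximal tubule clusters, all with intervals that hold the TAL ratio. In IC-A/IC-B the ratio was 0.702 (0.603 to 0.816), in CNT 0.440 and in DCT+CNT 0.271. The proximal tubule ratios rest on 10 to 46 Casr UMIs a cluster, and their intervals are wide.

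**Figure D1:**
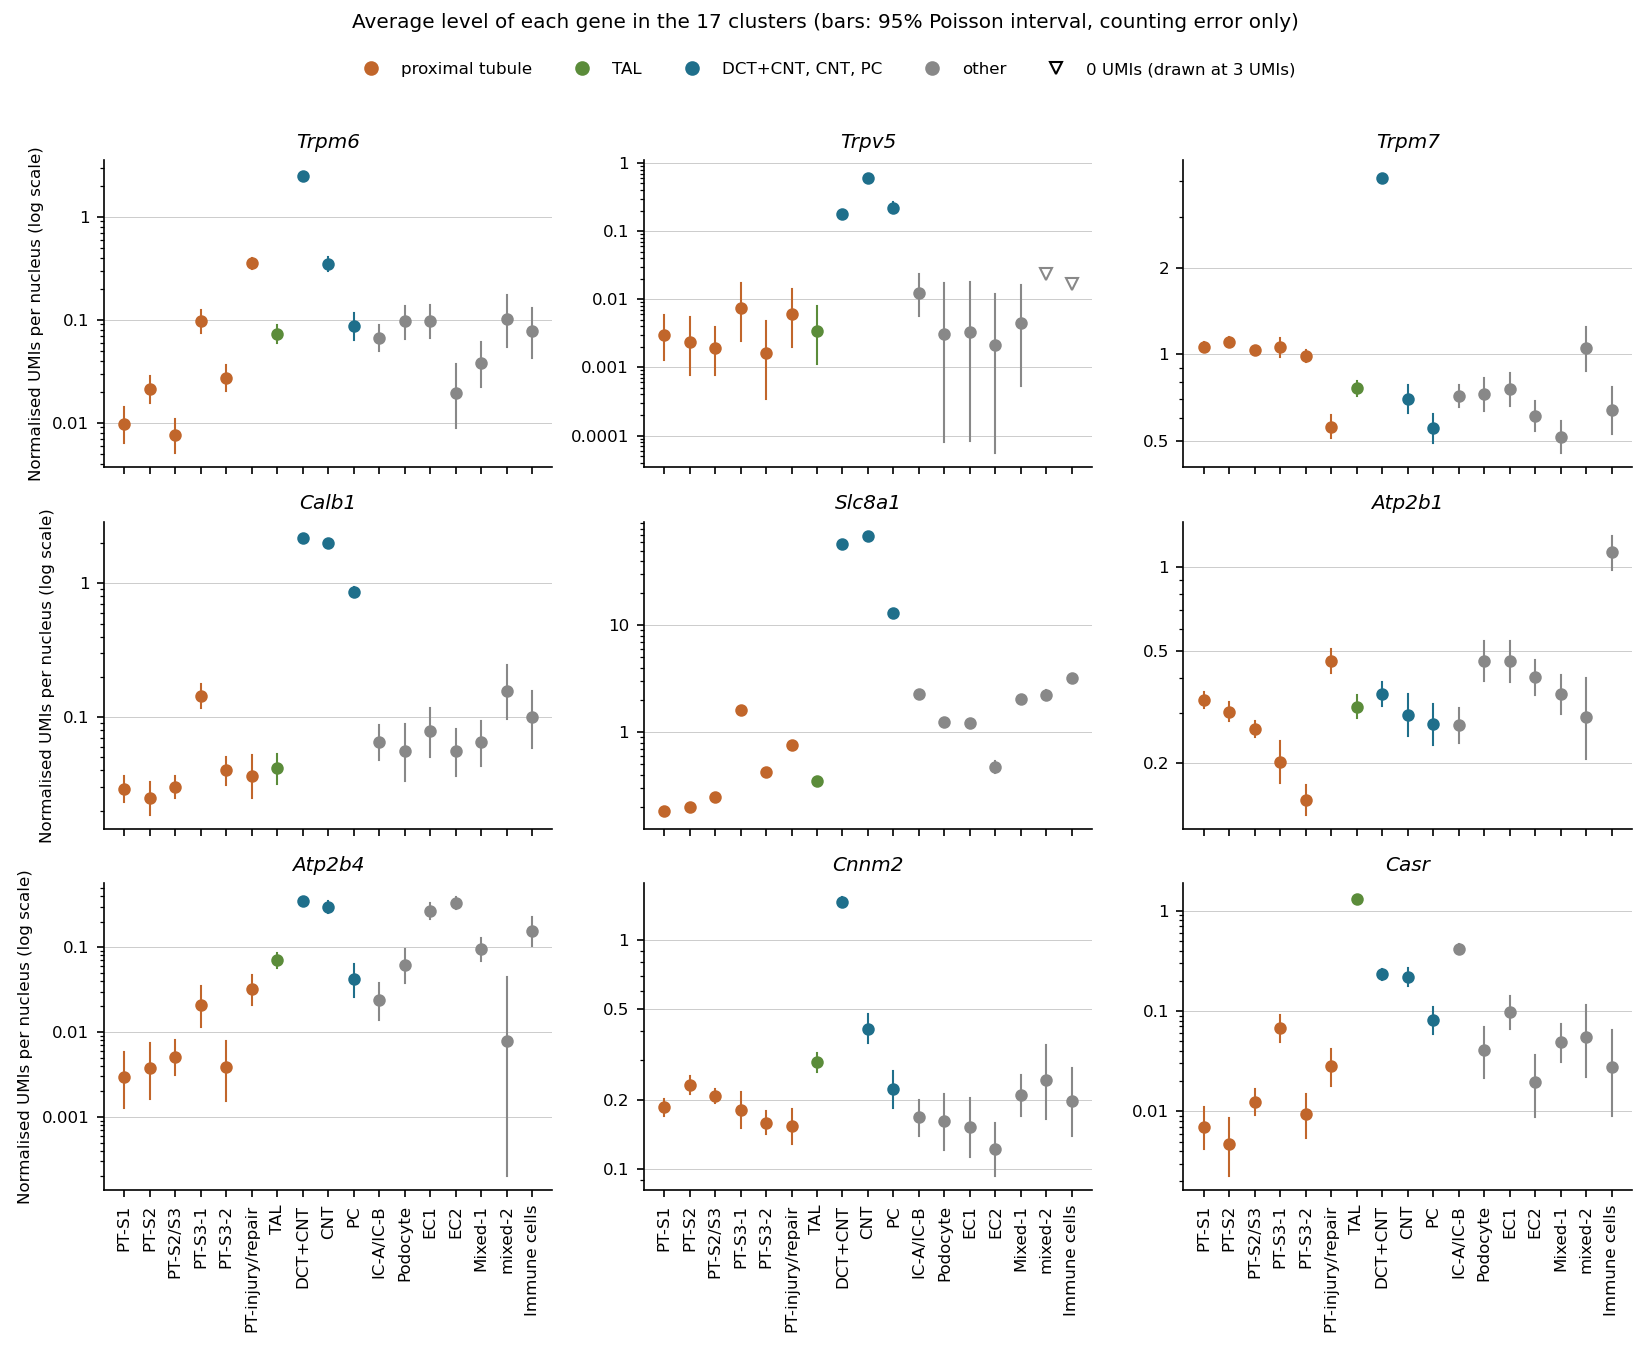
Average of each gene (normalised UMIs per nucleus, log scale, a separate scale per panel) in the 17 clusters, with 95% Poisson intervals for counting error as bars and open triangles for 0 UMIs drawn at the 3-UMI average. Trpm6, Trpm7, Calb1, Atp2b4 and Cnnm2 peak in DCT+CNT, Trpv5 and Slc8a1 in CNT, Casr in TAL and Atp2b1 in the immune cells, and Trpm6 stands at 0.353 in PT-injury/repair.

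**Figure D2:**
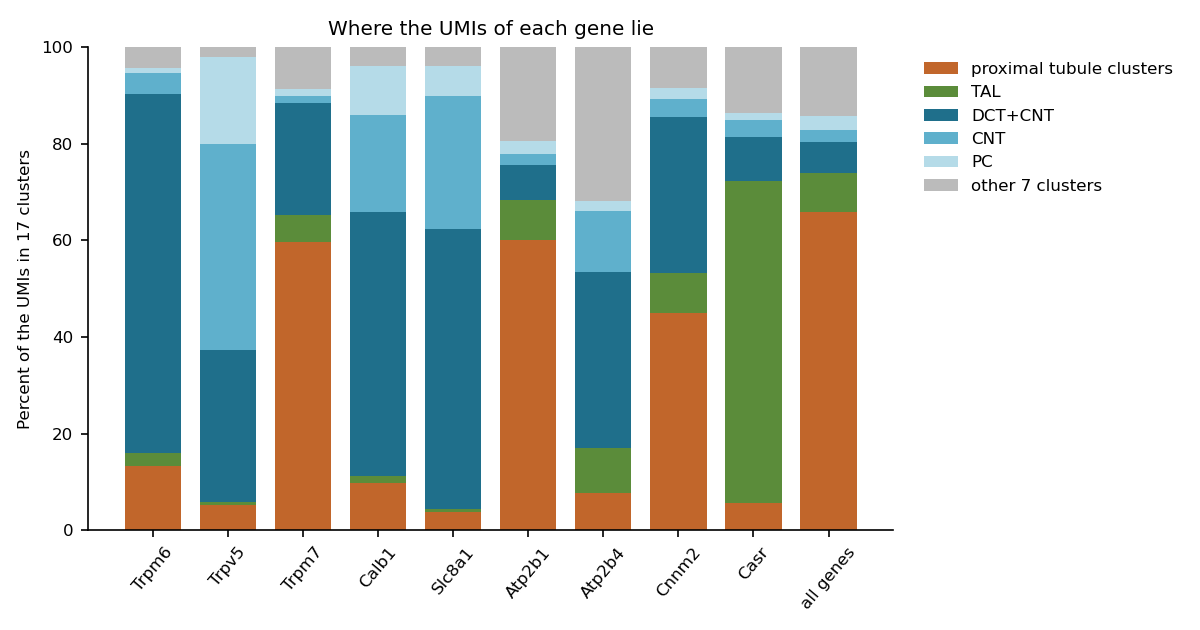
Percent of the UMIs of each gene, and of all genes together, that lie in the proximal tubule clusters, TAL, DCT+CNT, CNT, PC and the other 7 clusters. DCT+CNT, CNT and PC together hold 92.0% for Trpv5 and 91.8% for Slc8a1, against 12.3% for Atp2b1 and 11.8% for all genes.

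In the cluster PT-injury/repair 5 of the 9 members had higher averages than in the other proximal tubule clusters beyond counting error, and 2 lower. Over the 22467 genes with a UMI in these clusters 26.7% had an interval above 1 and 11.7% below, so such a difference is common there. These shares include genes of very few UMIs, whose intervals can hardly lie clear of 1. No share among genes of the members' levels was computed. The injury part of the authors' name fits Havcr1, which encodes the injury marker KIM-1. It was 146-fold above the average of the other 5 proximal tubule clusters pooled. Lrp2, which encodes the endocytic receptor megalin, was at 0.151 of their pooled level. The summed level of 6 proximal tubule markers was 3.05 in PT-injury/repair and 12.6 to 35.2 in the other 5. That sum was above 3.05 in Podocyte (5.30), the immune cells (4.34) and mixed-2 (9.97), and below it in the remaining clusters. Trpm6 had 289 UMIs in PT-injury/repair, an average of 0.353, against 213 UMIs and an average of 0.0193 in the other 5 clusters (0.00757 to 0.0963). The ratio was 18.2 (15.2 to 21.9), and every one of the 5 lay below PT-injury/repair. Atp2b4 had a ratio of 6.24 (3.76 to 10.1) on 26 UMIs, at 0.0317 against 0.00508. Against PT-S3-1 alone the Atp2b4 ratio was 1.51 (0.759 to 3.12), an interval that holds 1. Slc8a1 had a ratio of 2.25 (2.07 to 2.45), at 0.754 against 0.335, with PT-S3-1 above PT-injury/repair at 1.63. Casr had a ratio of 2.26 (1.38 to 3.53), with PT-S3-1 again the higher one. The pump Atp2b1 had a ratio of 1.74 (1.56 to 1.93), at 0.461 against 0.266. Trpm7 went the other way, with a ratio of 0.534 (0.486 to 0.586), and Cnnm2 too, at 0.777 (0.644 to 0.930). Calb1 (0.977, 0.651 to 1.42) and Trpv5 (2.40, 0.724 to 6.30, on 5 UMIs) had intervals that hold 1. These intervals leave out differences between nuclei and animals.

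PT-S3-1 itself had higher summed levels of distal markers than the other proximal tubule clusters, and of markers of some other cell types too. Its summed level of 5 distal convoluted tubule markers was 2.05, against 0.734 to 1.17 in the other 5, and its summed level of 7 thick ascending limb markers 3.18, against 0.393 to 1.07. Its sums were also the highest of the 6 proximal tubule clusters for intercalated cell (0.226), endothelial (0.438) and immune markers (0.277). PT-injury/repair came near for endothelial markers (0.399) and PT-S3-2 for immune markers (0.222). Podocyte (0.205), stromal (0.0769) and thin limb markers were highest in PT-injury/repair. Leaving PT-S3-1 out, a choice made after its values were seen, the ratio for Trpm6 was 24.5 and that for Slc8a1 3.0.

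Some genes of distal cells also had higher averages in PT-injury/repair. Slc12a3 averaged 0.360 there, against 0.223 in the other 5 proximal tubule clusters, a ratio of 1.62. Egfem1, of the connecting tubule list, had a ratio of 4.44 (2.92 to 6.6) on 34 UMIs, and Scnn1b, a subunit gene of the epithelial sodium channel, one of 3.39 (2.21 to 5.06) on 31 UMIs. For each of these genes the highest single cluster of the other 5 was above PT-injury/repair. For Slc12a3 it had 1.16, for Egfem1 0.0421 against 0.0415, and for Scnn1b 0.0451 against 0.0378. The summed level of the 4 connecting tubule markers was 0.510 in PT-injury/repair and 0.386 to 1.14 in the rest of the proximal tubule, and that of the 6 principal cell markers 0.120 and 0.0335 to 0.171. PT-injury/repair held 0.980 (0.830 to 1.16) UMIs of Trpm6 for each UMI of Slc12a3, while DCT+CNT held 0.0740 (0.0712 to 0.0769). In 12 further clusters, among them the other 5 of the proximal tubule, this ratio lay between 0.0697 and 0.108, near that of DCT+CNT. It was higher in IC-A/IC-B (0.186), CNT (0.453) and PC (0.780). The part of distal cells in the Trpm6 level was not tested. Markers of the thin limb were higher as well: the summed level of the 4 thin limb markers reached 0.555 in PT-injury/repair. This was the highest of the 17 clusters, followed by mixed-2 with 0.205. The other 5 proximal tubule clusters lay between 0.0295 and 0.104. The part of thin limb cells in the result was not tested.

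**Figure D3:**
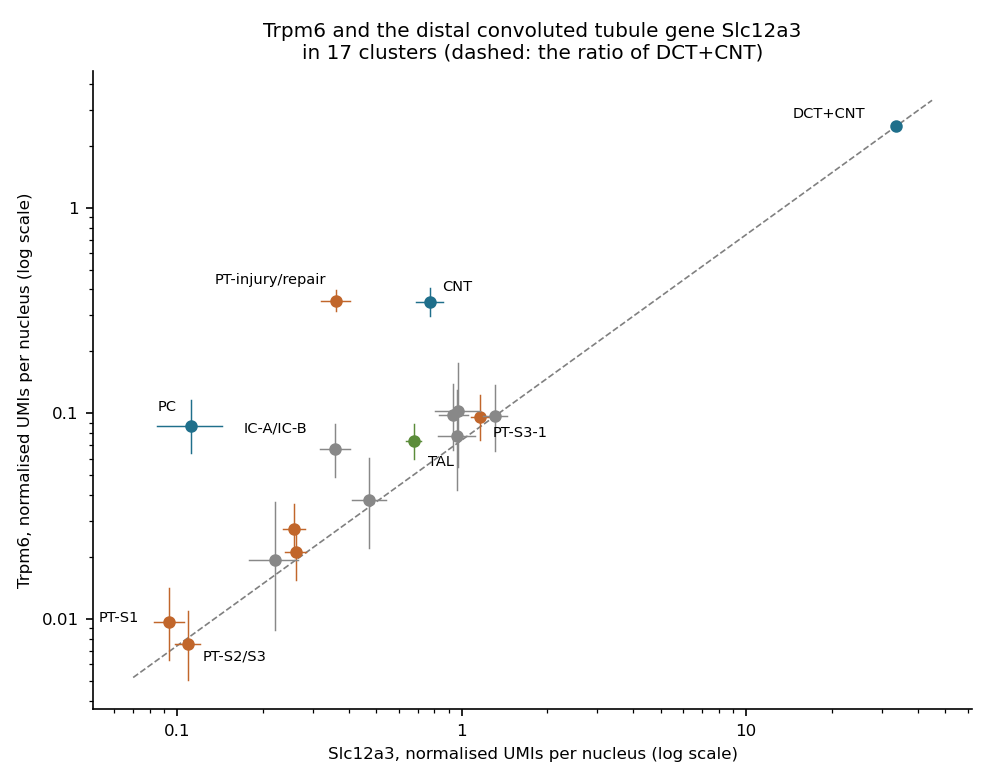
Trpm6 against Slc12a3 (both normalised UMIs per nucleus, log scales) in the 17 clusters, coloured orange for the proximal tubule, green for TAL, blue for DCT+CNT, CNT and PC and grey for the rest, with 95% Poisson intervals. The dashed line is the ratio of DCT+CNT, 0.0740 Trpm6 UMIs per Slc12a3 UMI, on or near which most clusters lie, and PT-injury/repair lies above it at 0.980.

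In the proximal tubule pools of Cis9w and CT9w none of the 9 genes was called. A call is a p below the level of 0.05 in the authors' deposited table, and the sources used here do not state its test or adjustment. Over all 21312 genes 454, or 2.13%, were called, 212 of them higher (0.995%) and 242 lower (1.14%) in Cis9w, so 0 of 9 does not set the members apart from all genes. Among the 10656 genes at or above the median level of all genes, 0.0154 normalised UMIs per nucleus, 3.29% were called. The p of 5 of the 9 was exactly 1, as for 82.4% of all genes. No other tool could be run, since each group has 1 pooled column. Of the members, 7 reached that level, and Trpv5 and Atp2b4 did not. In such pools fewer nuclei of a type and less RNA per nucleus cannot be told apart.

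Among the entry channels, Trpm6 had 240 UMIs and an average of 0.0784 in Cis9w, against 95 UMIs and 0.0519 in CT9w. The ratio of averages was 1.51 (1.19 to 1.94), and the authors' deposited table gave a log2 fold change of 0.59 with p = 0.962. For each UMI of Slc12a3, Trpm6 had 0.204 (0.177 to 0.234) in Cis9w and 0.117 (0.0932 to 0.144) in CT9w, while Slc12a3 itself averaged 0.385 in Cis9w and 0.445 in CT9w. The 5 distal convoluted tubule markers, none of them at 0 UMIs in a pool, summed to 1.38 in Cis9w and 1.37 in CT9w. Trpv5 was at the edge of detection, with 35 UMIs in Cis9w and 11 in CT9w, and a ratio of 1.91 (0.946 to 4.16). Trpm7 had 4044 UMIs and an average of 1.32 in Cis9w, against 2713 UMIs and 1.48 in CT9w. Its ratio, 0.892 (0.850 to 0.937), was the one with an interval below 1.

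Calb1 averaged 0.0579 in Cis9w and 0.0590 in CT9w, a ratio of 0.981 (0.768 to 1.26). Among the exit proteins, Slc8a1 had 4046 UMIs and an average of 1.32 in Cis9w, against 1331 UMIs and 0.727 in CT9w. Its ratio was 1.82 (1.71 to 1.94), and the authors' deposited table gave a log2 fold change of 0.86 with p = 0.878. The averages of the calcium exchanger thus differed beyond counting error between the pools, without a call. Both pools together held more Slc8a1 UMIs than the proximal tubule clusters, with 4306, and more Trpv5 UMIs (33 in those clusters). The remaining members had fewer UMIs in the pools than in those clusters. The same clusters held 23761309 UMIs of all genes, more than both pools together. The pools and these clusters thus do not hold matching sets of RNA. Which nuclei the pools hold was not tested, so the Slc8a1 ratio may not be one of proximal tubule nuclei alone. For each UMI of Slc12a3, Slc8a1 had 3.44 (3.22 to 3.67) in Cis9w and 1.63 (1.5 to 1.78) in CT9w, against 1.70 in DCT+CNT, 88.4 in CNT and 118 in PC. One gene of the connecting tubule list, Egfem1, had 152 UMIs in Cis9w and 16 in CT9w, and the list of 4 as a whole a summed level of 1.07 in Cis9w and 1.05 in CT9w. Kl carried most of that sum and was lower in Cis9w, at 0.716 against 0.808 in CT9w. The other 3 were higher in Cis9w, Klk1 with a ratio of 1.38 (1.18 to 1.62) and S100g with 1.23 (1.03 to 1.46). None of the list was called. The 6 principal cell markers summed to 0.0928 in Cis9w and 0.0524 in CT9w, and their part in the Slc8a1 values was not tested. Only 1 of these 6, Hsd11b2, was called, with 91 UMIs in Cis9w, 18 in CT9w and p = 0.0311 in the authors' deposited table.

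The pump Atp2b1 had 1408 UMIs and an average of 0.460 in Cis9w, against 537 UMIs and 0.293 in CT9w. Its ratio was 1.57 (1.42 to 1.74), with a log2 fold change of 0.65 and p = 0.339 in the authors' deposited table, the lowest p of the 9. Atp2b4 had 48 UMIs in Cis9w and 13 in CT9w, a ratio of 2.21 (1.18 to 4.45) and p = 0.509 in the authors' deposited table. The clusters with the highest levels of these pumps include immune, podocyte and endothelial cells. They also include DCT+CNT and CNT for Atp2b4, and PT-injury/repair for Atp2b1. The 6 endothelial markers summed to 0.216 in Cis9w and 0.140 in CT9w, the 5 podocyte markers to 0.0961 in Cis9w and 0.0519 in CT9w, and the 6 immune markers to 0.0843 in Cis9w and 0.116 in CT9w. Csf1r carried the lower immune sum in Cis9w, and the other 5 markers summed to 0.0373 in Cis9w and 0.0213 in CT9w. None of these 17 markers had 0 UMIs in a pool, and their part in the pump values was not tested.

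Cnnm2 averaged 0.271 in Cis9w and 0.277 in CT9w, a ratio of 0.977 (0.874 to 1.09). Casr had 54 UMIs in Cis9w and 36 in CT9w, a ratio of 0.898 (0.578 to 1.41). For each UMI of Slc12a1 it had 0.0339 in Cis9w and 0.0257 in CT9w, beside 0.0317 in TAL. The 7 thick ascending limb markers summed to 0.771 in Cis9w and 1.07 in CT9w. Markers of intercalated cells, the second cluster for Casr, went the other way, with a sum of 0.105 in Cis9w and 0.0469 in CT9w. The part of either cell type in the Casr values was not tested.

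Of the 9 ratios of Cis9w to CT9w, 4 had an interval above 1 (Trpm6, Slc8a1, Atp2b1, Atp2b4), 1 below (Trpm7) and 4 an interval that holds 1. Over all genes 12.4% of intervals lay above 1 and 9.58% below. Among genes at or above the median level, as 7 of the 9 are, 19.6% lay above and 16.1% below. The median deposited log2 fold change of the 9 was 0.59, against 0.04 over all genes (quartiles -0.31 and 0.29). With the 7 genes at or above the median level alone the median was -0.032, so the sign of the summary rests on the 2 genes of fewest UMIs. Markers of injured proximal tubule moved with treatment: 7 of 8 were called higher in Cis9w and none lower, and their summed level was 1.45 in Cis9w and 0.238 in CT9w. Krt20 and Lcn2, of that list, had 0 UMIs in CT9w. The 4 genes with a Cis9w interval above 1 also had ratios of PT-injury/repair to the other proximal tubule clusters above 1. So did Trpv5, with an interval that holds 1, and Casr, whose Cis9w ratio was 0.898 (0.578 to 1.41). Both comparisons draw on nuclei of the same study samples, so they are not independent. Trpm7 was below 1 in both comparisons, and so were Cnnm2 and Calb1, with intervals that hold 1 in at least 1 of them. The sources used here do not give the share of PT-injury/repair nuclei in either pool, and its part in these values was not tested.

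**Figure D4:**
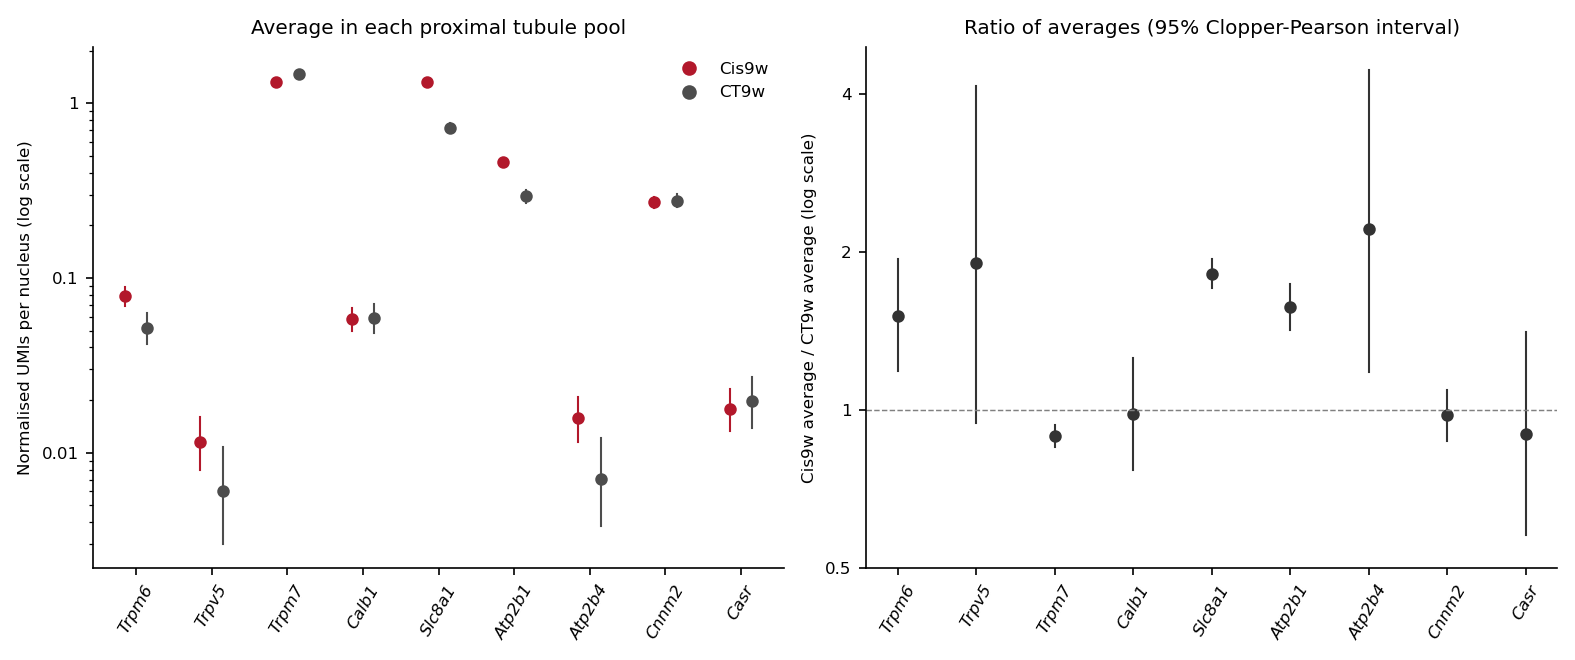
Left, average of each gene (normalised UMIs per nucleus, log scale) in the Cis9w and CT9w proximal tubule pools with 95% Poisson intervals, and right, the ratio of Cis9w to CT9w (log scale) with 95% Clopper-Pearson intervals and a dashed line at 1. The intervals of Trpm6, Slc8a1, Atp2b1 and Atp2b4 lie above 1, that of Trpm7 below, and no gene was called.

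Of 53 other genes of calcium and magnesium handling, 50 were in the proximal tubule table (Calb2, Atp2b3 and Kcna1 were not used here). The authors' deposited table called 2 higher in Cis9w, none lower and 48 not, against 0.995% higher and 1.14% lower over all genes. Their median deposited log2 fold change was 0.12. Both called genes belong to the 16 measured regulators and are enzymes of vitamin D, the hormone that raises expression of distal calcium transport genes. Cyp24a1, which inactivates the hormone, had 1755 UMIs in Cis9w and 429 in CT9w, a ratio of 2.45 (2.20 to 2.73), with p = 0.0010 in the authors' deposited table. Cyp27b1, which makes its active form, had 122 UMIs in Cis9w and 6 in CT9w, and p = 1.41e-07 in the authors' deposited table.

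Outside the regulators no gene was called in any role. Trpv6, a second apical calcium channel, had 4 UMIs in Cis9w and 0 in CT9w, and its highest cluster was PC with 0.0416. Of the calcium buffers, S100g, which encodes calbindin-D9k, was highest in CNT at 0.572. Of the 9 measured exit genes, the calcium pump gene Atp2b2 reached 0.961 in PC, its leading cluster. Of the 6 paracellular genes, Cldn10 was highest in PT-S2 at 1.71, and Cldn16 (0.179) and Cldn19 (0.148), the claudins of the magnesium and calcium pathway between thick ascending limb cells, were highest in TAL. Egf, which encodes the growth factor known to stimulate TRPM6, had 18.1 in TAL. Nipa2, a magnesium transporter gene, reached 0.238 in the immune cells, and Itpr2, the gene of an intracellular calcium release channel, 5.92 in IC-A/IC-B.

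Over the 17 clusters the genes of the most similar pattern were sought among 11063 genes, by Pearson r of log2 averages. The points share libraries and depth, and r is a description. Calb1 and Slc8a1 were each other's closest gene at 0.96, followed for Calb1 by Egfem1 (0.94) and Scnn1g (0.90), the gamma subunit gene of the epithelial sodium channel, and for Slc8a1 by Tsc22d1 and Egfem1 (both 0.92). Casr was close to Acacb (0.95) and Tmem72 (0.95). Trpm6 was closest to Tsc22d1 (0.91), Sall3 (0.89) and Rnaset2a (0.87). Trpv5 was closest to Phactr1 (0.92), Cog7 (0.92) and Slc2a9 (0.91), a urate transporter gene. Trpm7 was closest to Tex2 (0.82) and Simc1 (0.78), and then to Cnnm2 (0.76). Cnnm2 was closest to Klhl3 (0.88), which encodes an adaptor that marks WNK kinases for breakdown, then Cyb5rl (0.85) and Tdrd3 (0.85). Atp2b1 was closest to Plekhm3 (0.89), Wdr1 (0.89) and Slc38a9 (0.88), and Atp2b4 to Wrn (0.91), Cdca7l (0.89) and Fam3c (0.88). With Spearman in place of Pearson, 4 of the 27 genes, 3 for each member, were still among the closest 3.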

How the data were processed

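RNA of single nuclei was measured in 2 Cis9w and 2 CT9w kidney samples. The submitters' processing notes name Cell Ranger 5.0.1 and the build mm10. How clusters, filters, doublets and free RNA were handled is not stated in the sources used here. Each table gives the authors' averages, log2 fold changes and p-values, per the file headers. The averages were deposited as a signal in normalised UMIs per nucleus that totals the same in every column of a table. UMI sums were recovered as whole multiples of 1 step (tolerance 0.1 UMI, met by 99.995% or more of the genes of each column) and checked on simulated data. Ratios, shares and intervals were computed from them (Python 3.11.15, scipy 1.17.1). Likeness used log2 of the average plus a pseudocount, the 10th percentile of averages above 0, among genes at or above the median level. The tables were scaled separately, so their averages were not compared, and UMIs of a gene per UMI of a marker, a ratio within 1 pool that scaling does not change, are given for both. Columns carry no sample label, so samples were not tested against each other. The text names all 9 genes, called genes of the other roles, the gene of highest cluster average per role, and the 3 closest in pattern, of which 1 is not reported here. Cldn16, Cldn19, Egfem1 and the markers beside the results were named after their values were seen. Members and lists were chosen with earlier results of these data known. Annotated genes that overlap members are in neither table.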

Additional observations from a re-analysis of the deposited data

How the results depend on the processing

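No member was called under any setting (p under 0.05 or 0.01, with or without a log2 fold change of at least 1 or a level filter), and the 2 called vitamin D genes stayed 2. The median log2 fold change of the 9 genes was -0.032 among members at or above the median level, 0.59 among all 9 and 0.40 as a mean. All 18 recomputed member ratios lay within their main intervals. They used a pseudocount of 0.000546 or division by the median ratio of genes at or above the median level. Both are small changes, so this is a weak check. By UMIs in place of averages, the leading cluster differed for Slc8a1 (DCT+CNT) and Atp2b1 (PT-S2/S3). As a percent of summed averages, which weighs clusters equally, the leading cluster held 62.1% for Trpm6, 24.3% for Trpm7, 57.5% for Trpv5, 36.6% for Calb1, 44% for Slc8a1, 17.8% for Atp2b1, 19.6% for Atp2b4, 30.7% for Cnnm2 and 48.8% for Casr. Of the 27 most similar genes, 4 were found again with Spearman and 17 with a pseudocount 10 times as large, and the cause was not tested. No paired analysis was possible because the columns carry no replicate number, and for the same reason no replicate could be left out. Depth limits Trpv5 and Atp2b4 most, with 11 and 13 UMIs in CT9w.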
